A study of Mus musculus with 4 samples.

Results

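The T cell receptor (TR) genes of mouse T helper 17 (Th17) cells were described by their V, D, J and C segments. Members were the genes whose GENCODE gene type is TR V, D, J or C gene, which gave 226 of the 50600 genes counted, namely 144 V, 4 D, 70 J and 8 C segments. Of these, 168 had at least 1 count in some library, 58 had none, and 73 had 10 or more counts in every library. The 44 V and J pseudogenes of the same loci were not members and served as a background. Th17 cells are an IL-17-secreting subset of CD4 T cells. RNA was sequenced from primary Th17 cells of C57BL/6NJ mice in 4 libraries, which the labels number as biological replicates 1 to 4. All 4 libraries form a single group with 1 shared donor label, sex is not collected, age is unknown, and the linked culture protocol is for CD4 T cell differentiation. The assay label reads total RNA, while the linked library protocol is for poly(A)-selected RNA. The labels do not say whether the replicates came from separate animals or cultures, so p-values measure the spread between these libraries only, and part of it may be technical.

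A T cell receptor chain is built by V(D)J recombination, in which the RAG enzymes join a V and a J segment, with a D segment between them in beta and delta chains. Splicing then joins the rearranged exon to a constant (C) gene. Most CD4 T cells carry an alpha chain from the Tra locus and a beta chain from the Trb locus, while gamma-delta T cells, some of which also secrete IL-17, use the Trg and Trd loci. Trd lies inside Tra, so that rearrangement of Tra deletes it from that chromosome.

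Library totals were between 28555677 and 58104663 counted fragments. CPM is a count relative to the total of its library. Where a gene had 0 counts, the limit set by 3 counts was 0.105 CPM in replicate 1, the shallowest library, and 0.0516 CPM in replicate 3, the deepest, for counting error only. The counting command left out fragments with several alignments and did not set the option to count a fragment for each of 2 genes it touched. Fragments that span a V segment and a C gene were therefore probably left out, at least in part. Whether such a fragment was given to 1 gene when both of its ends touched that gene was not checked. The counts are not numbers of rearranged transcripts. All 7 markers of Th17 cells were at 1 TPM (counts per exon length, scaled to the library) or more in every library, where 47.0% of protein-coding genes were. The female transcript Xist had 20217, 26067, 103 and 115 counts in replicates 1 to 4, and the Y-linked gene Eif2s3y had 10, 11, 4769 and 3145. Replicates 1 and 2 thus stood apart from replicates 3 and 4 in sex-linked genes, although the donor label is shared.

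Sequences of the segments on which the results turn are given first, from GENCODE M21 transcripts, 5′ to 3′. The beta D segments are shown because they are too short to hold a whole read, and both lie on the plus strand of mm10, Trbd1 at chr6:41533201-41533212 and Trbd2 at chr6:41542163-41542176.
Trbd1: gggacagggggc
Trbd2: gggactgggggggc
Beta J segments are shown to set the pseudogene Trbj2-6 and the gene Trbj1-7 beside their neighbours. Capitals mark TTTGG or TTCGG followed by any 4 bases and GG, which encodes the conserved phenylalanine and glycines of the J region.
Trbj1-7: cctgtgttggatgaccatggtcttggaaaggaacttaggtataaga
Trbj2-1: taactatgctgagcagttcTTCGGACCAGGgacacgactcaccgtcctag
Trbj2-2: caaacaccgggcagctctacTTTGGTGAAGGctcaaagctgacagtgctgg
Trbj2-3: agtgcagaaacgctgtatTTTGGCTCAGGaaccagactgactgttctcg
Trbj2-4: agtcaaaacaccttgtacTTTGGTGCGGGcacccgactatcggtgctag
Trbj2-5: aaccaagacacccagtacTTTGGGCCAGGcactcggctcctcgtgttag
Trbj2-6: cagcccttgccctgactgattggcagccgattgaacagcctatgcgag
Trbj2-7: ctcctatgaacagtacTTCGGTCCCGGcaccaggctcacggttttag
This motif was found on the sense strand of 55 of the 70 J genes and 1 of the 10 J pseudogenes, and on the reverse strand of 0 of both. Among the 13 Trbj genes 11 had it, and Trbj1-6, Trbj1-7 and Trbj2-6 did not.

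The last 45 bases of the 5 most counted beta V segments, and of the most counted Trbv pseudogene, show where the variable exon ends beside the recombination site. Capitals mark TGTGCCAGC, which encodes the conserved cysteine and the 2 residues after it.
Trbv1: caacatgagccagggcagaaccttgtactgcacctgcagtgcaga
Trbv3: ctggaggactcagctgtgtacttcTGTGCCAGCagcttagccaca
Trbv31: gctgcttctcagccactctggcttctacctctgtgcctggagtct
Trbv2: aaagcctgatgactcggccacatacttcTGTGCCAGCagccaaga
Trbv13-2: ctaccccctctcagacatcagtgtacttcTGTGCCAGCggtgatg
Trbv24: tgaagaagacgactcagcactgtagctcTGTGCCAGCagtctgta
In their last 45 bases, 13 of 22 Trbv genes and 4 of 13 Trbv pseudogenes held it on the sense strand, and 0 of both held it on the reverse strand. None of the 108 Trav genes held these letters in that window. Trbv1, the segment with the highest mean share, and Trbv31 were among the Trbv genes without it.

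Trav14 was the most counted alpha V family, and the copies shown differ by few bases in their last 60. Over whole transcripts, from 0% (Trav14-1) to 23.2% (Trav14-3) of the 100-base windows of these copies occur in another transcript. For Trav14d-1, a copy not shown, it is 100%. Capitals in the last 60 bases mark differences from Trav14n-3.
Trav14n-3: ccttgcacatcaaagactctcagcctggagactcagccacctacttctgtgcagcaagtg
Trav14d-3-dv8: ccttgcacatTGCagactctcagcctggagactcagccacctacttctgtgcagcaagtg
Trav14-2: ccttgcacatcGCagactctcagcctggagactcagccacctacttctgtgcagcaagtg
Trav14-3: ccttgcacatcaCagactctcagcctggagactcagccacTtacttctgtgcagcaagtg
Trav14-1: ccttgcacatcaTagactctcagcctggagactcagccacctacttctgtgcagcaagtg
The first exons of the beta constant genes are nearly the same over 375 bases, with 1 difference and 99.7% identity. Capitals mark that difference in bases 230 to 289 of each transcript.
Trbc1: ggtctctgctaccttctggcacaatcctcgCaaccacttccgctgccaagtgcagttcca
Trbc2: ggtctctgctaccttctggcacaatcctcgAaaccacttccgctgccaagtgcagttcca
Of 100-base windows, 28.7% of those of Trbc1 and 30.9% of those of Trbc2 also occur in another transcript. Fragments that lie wholly in such windows can align in several places and were then not counted, so both genes can be counted too low.

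TR genes were 608, 569, 594 and 605 CPM in replicates 1 to 4, with a mean of 594 ± 17.8 (SD, n = 4). C genes held most of it, at 448 ± 14.6 CPM, followed by V segments at 130 ± 3.07, J segments at 13.1 ± 1.20 and D segments at 2.75 ± 0.36 CPM. By locus, Trb took 53.0% ± 0.51 of TR counts, Tra 46.6% ± 0.49 and Trd 0.341% ± 0.048. The highest and lowest totals were both in the pair of libraries with high Xist, replicates 1 and 2, and the range of that pair held the values of replicates 3 and 4.

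Trac, the alpha constant gene (chr14:54220521-54224206, plus strand), had 6966, 8259, 13724 and 10270 counts in replicates 1 to 4, or 840 ± 31.5 TPM. Trbc1 (chr6:41538218-41539881), which lies behind the Trbj1 cluster, had 2840, 3337, 5570 and 4260 counts, or 428 ± 18.9 TPM. Trbc2 (chr6:41546730-41548352), which lies behind the Trbj2 cluster, had 3207, 4157, 6566 and 5132 counts, or 550 ± 15.2 TPM. Trbc2 was above Trbc1 in every library, by 0.29, 0.43, 0.35 and 0.38 on the log2 scale of TPM + 0.1, with a mean of 0.36 ± 0.06. Per exon length, Trac was below the sum of both beta genes in every library, with log2 ratios of -0.18, -0.24, -0.21 and -0.25 and a mean of -0.22 ± 0.04. That direction depended on length, since raw counts put Trac above the sum by 0.16 on the log2 scale. Each of the 7 pairs compared had the same direction in 4 of 4 libraries and an exact two-sided sign-flip p of 0.125, which is the smallest 4 libraries allow, and 0.125 after adjustment over the 7 pairs. With 4 libraries the test cannot reach 0.05.

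**Figure D1:**
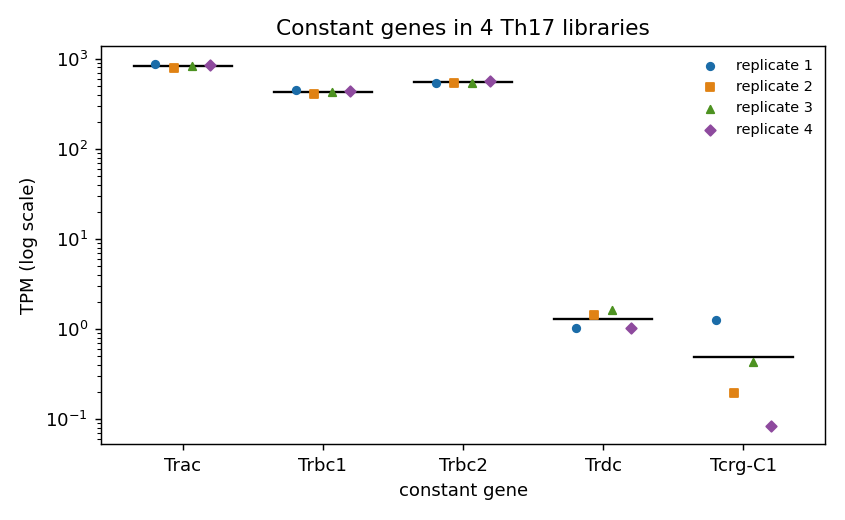
Level of each constant gene that had a count, in TPM on a log axis, with 1 point per library and a line at the mean. Trac, Trbc1 and Trbc2 lie far above Trdc and Tcrg-C1 in all 4 libraries.

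Constant genes of the gamma and delta chains had few counts. Trdc had 34, 61, 109 and 52 counts, or 1.28 ± 0.29 TPM. Tcrg-C1 had 10, 2, 7 and 1 counts, or 0.495 ± 0.54 TPM, and Tcrg-C2, Tcrg-C3 and Tcrg-C4 had 0 counts in every library. The alpha and beta constant genes exceeded those of gamma and delta by 9.60, 9.98, 9.72 and 10.57 on the log2 scale of summed TPM + 0.1, with a mean of 9.97 ± 0.43. In bulk RNA, fewer cells of a type and less RNA per cell cannot be told apart. Of the 7 listed gamma-delta markers found among the genes counted, 1, Trdc, reached 1 TPM in every library, where 47.0% of protein-coding genes did. The sum of these markers was between 1.37 and 3.00 TPM, and Tcrg-C2, Tcrg-C4 and Cd163l1 were at 0. Trdc, Tcrg-C1, Tcrg-C2 and Tcrg-C4 are constant genes already given above, so the list is not a separate check of them. Besides Cd163l1, the other markers were Sox13 at 0.164 TPM and Blk at 0.236 TPM. The part of gamma-delta cells in the Trdc level was not tested.

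Other Trd and Trg segments had few counts. Trdv1 had 13, 15, 23 and 22 counts, Trdv2-2 had 2, 0, 3 and 3, Trdv4 had 0, 0, 0 and 2, Trdv5, which overlaps Trdc on the other strand, had 3, 0, 2 and 0, and Trdv2-1 had none. Trdd1 and Trdd2 had 0 counts, and Trdj2 had 1 count and Trdj1 none. In the Trg locus, Tcrg-V4 and Tcrg-V1 had 1 count each, the other 5 Trg V genes had none, and all 4 Trg J genes had none. A pair of V genes fell outside the locus prefixes: B230359F08Rik had 3, 1, 9 and 2 counts, and C920008G01Rik had none.

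V segments carried a larger share of their locus in Trb than in Tra. For each C count there were 0.438, 0.442, 0.436 and 0.412 V counts in Trb, a mean of 0.432 ± 0.014, and 0.167, 0.166, 0.165 and 0.157 in Tra, a mean of 0.164 ± 0.0043. The 2 loci did not overlap in any library. Among Trbv genes Trbv4 and Trbv5 had 67.3% and 73.2% of their 100-base windows in another transcript, while 40 of 108 Trav genes had at least 90%. Among the C genes, Trbc1 and Trbc2 had 28.7% and 30.9% and Trac 0%. These are raw counts, and the exon length is 935 bases for Trac, 749 for Trbc1 and 692 for Trbc2. The part of shared sequence, in V or in C genes, or of exon length in the difference was not tested.

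All 22 Trbv genes had a count, and 20 had at least 10 counts in every library. Trbv1 had 351, 384, 546 and 456 counts, which was 11.7% ± 1.21 of Trbv counts. Trbv3 had 291, 378, 672 and 439 counts, or 11.6% ± 0.74, Trbv31 had 256, 330, 540 and 373, or 9.87% ± 0.26, and Trbv2 had 271, 307, 451 and 361, or 9.34% ± 0.71. Trbv13-2 had 239, 335, 473 and 323 counts, or 9.11% ± 0.74. These 5 held 51.7% ± 1.33 of Trbv counts, and of neighbours in this order Trbv3 and Trbv31 differed by more than both of their SDs. Trbv31 and Trbv2 differed by more than the SD of Trbv31 and less than that of Trbv2, and the other neighbours by less than either SD. This order is of raw counts over exons of unequal length. In mean TPM the order was Trbv1 85.3, Trbv13-2 81.1, Trbv3 77.2, Trbv31 71.5, Trbv13-3 55.8 and Trbv2 50.5. Trbv31 lies downstream of Trbc2 on the minus strand, so it joins by inversion. Next by share of counts came Trbv19 (7.09% ± 0.96), Trbv13-3 (6.28% ± 0.92), Trbv16 (5.66% ± 0.39), Trbv15 (5.41% ± 0.90) and Trbv13-1 (5.38% ± 0.83). The top 10 held 81.5% ± 0.90, and the others ranged from 3.42% (Trbv20) down to 0.0798% (Trbv21, with 2, 3, 4 and 3 counts). The effective number of segments (inverse Simpson index, the number of equally used segments that would give the same concentration) was 12.95, 12.97, 13.09 and 13.29 in the 4 libraries, a mean of 13.1 ± 0.16.

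**Figure D2:**
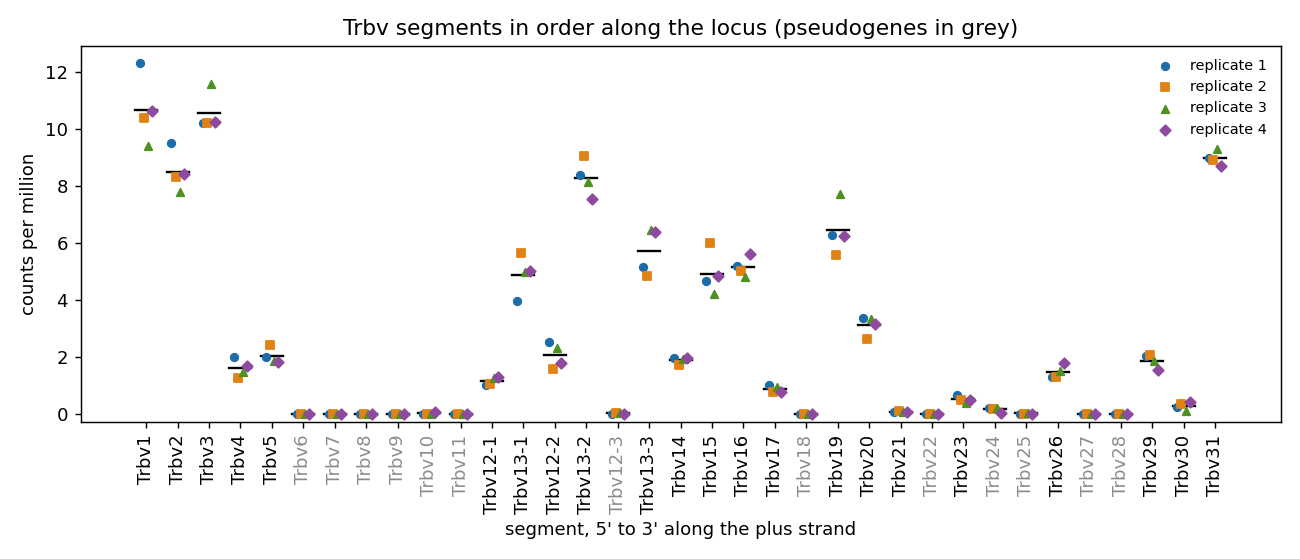
Level (CPM) of Trbv genes and Trbv pseudogenes in order along the locus, with 1 point per library and a line at the mean; names of pseudogenes are grey. Pseudogenes lie at or near 0 in all 4 libraries.

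Trbv pseudogenes, which cannot give a working chain, gave a background for this. They had 6, 7, 13 and 3 counts summed over 13 of them, against 2647, 3309, 5297 and 3865 for the 22 Trbv genes, and 9 of the 13 had none. Per kilobase of exon the genes exceeded them by 7.53, 7.65, 7.48 and 8.97 on the log2 scale, a mean of 7.91 ± 0.71. Trbv24, the most counted of them, had 6, 6, 11 and 1 counts. For 2 Trbv genes another gene overlaps: 75.1% of the exon of Trbv4 and 79.3% of that of Trbv5 lie in the lincRNA 5830405F06Rik on the same strand (9, 13, 31 and 19 counts). Fragments touching both genes were probably left out, at least in part.

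Beta D and J segments were counted well above 0. Trbd1 had 49, 71, 140 and 98 counts and Trbd2, 14 bases long, had 19, 23, 45 and 26. All 13 Trbj genes had at least 10 counts in every library, from 10 counts of Trbj1-1 in replicate 4 to 82 of Trbj2-7 in replicate 4. Trbj2-7 had the most counts of them, at 38, 45, 73 and 82. The Trbj2 genes had 166, 186, 313 and 230 counts and the Trbj1 genes 157, 161, 267 and 236. Per kilobase of J exon, Trbj2 exceeded Trbj1 by 0.33, 0.45, 0.48 and 0.21 on the log2 scale, a mean of 0.37 ± 0.12. In raw counts the mean was 0.12, and replicate 4 had more Trbj1 than Trbj2 counts. Trbj2-6, a pseudogene without the J motif, had 41, 27, 64 and 37 counts, which lay within the range of the Trbj2 genes in replicates 2, 3 and 4 and above it in replicate 1, where the highest gene, Trbj2-7, had 38. Trbj1-7, a gene without the motif, had 12, 11, 34 and 25, and Trbj1-6, also without it, had 34, 35, 56 and 63. J counts are therefore given as RNA over the segment, and the transcripts they came from were not told apart. Trbj1-1 had 20, 16, 13 and 10 counts, highest in replicate 1, the library with the lowest total.

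**Figure D3:**
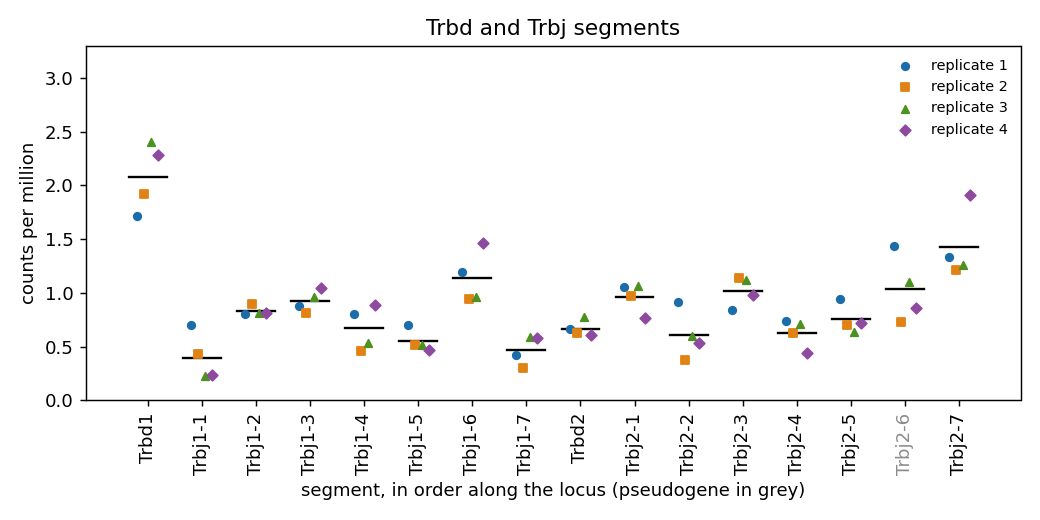
Level (CPM) of Trbd and Trbj segments in order along the locus, with 1 point per library and a line at the mean; the name of the pseudogene Trbj2-6 is grey. Trbj2-6 lies among the Trbj2 genes, and Trbd1 lies above Trbd2 in all 4 libraries.

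Of the 108 Trav genes 70 had a count and 33 had at least 10 in every library. The 5 most counted were led by Trav14n-3 with 81, 98, 139 and 110 counts (6.76% ± 0.43 of Trav counts). The others were Trav4-4-dv10 with 75, 78, 106 and 88 (5.57% ± 0.73), Trav14-2 with 49, 59, 116 and 71 (4.51% ± 0.42), Trav14-3 with 56, 58, 116 and 61 (4.49% ± 0.61) and Trav13-1 with 48, 55, 100 and 72 (4.25% ± 0.22). Next were Trav7-4 (33, 41, 71 and 49 counts), Trav3-3 (36, 44, 74 and 37), Trav10 (19, 53, 67 and 38), Trav4-3 (33, 31, 61 and 45) and Trav14d-3-dv8 (16, 63, 43 and 40), and the 10 held 39.5% ± 1.94 of Trav counts. Trav14n-3 and Trav4-4-dv10 differed by more than their SDs, while Trav14-2, Trav14-3 and Trav13-1 differed from each other by less than the larger SD of each pair. By family, Trav14 held 20.6% ± 1.54, Trav6 11.7% ± 2.10, Trav7 11.6% ± 1.43, Trav4 8.76% ± 0.80 and Trav13 8.22% ± 0.68. The effective number was 35.4, 34.2, 37.5 and 37.8, a mean of 36.2 ± 1.70, against 13.1 for Trbv, which has 22 genes. Copies with shared sequence can be counted too low. Ranks, family shares and the effective number therefore describe counted fragments only. The 20 Trav pseudogenes had 8, 17, 20 and 16 counts in all.

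The C57BL/6 Tra locus holds further copies of a V block, whose segments carry the letters d and n. Segments with no letter (46) held 76.5% ± 1.82 of Trav counts and 4 of them had no count, d copies (34) held 10.9% ± 1.27 and 20 had none, and n copies (28) held 12.7% ± 0.69 and 14 had none. The median share of windows found elsewhere was 8.29% for segments with no letter, 99.8% for d copies and 100% for n copies. Of the 40 Trav genes with at least 90% of their 100-base windows found in another transcript, 35 had no count and all 40 had 20 counts in all. The 36 with 10 to 90% held 51.3% of Trav counts and 2 had none, and the 32 with under 10% held 48.3% and 1, Trav23, had none. A count of 0 in the first class cannot be read as absence, since fragments with several alignments were not counted. Restricted to the 32 segments with under 10% of windows shared, the effective number was 20.1.

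**Figure D4:**
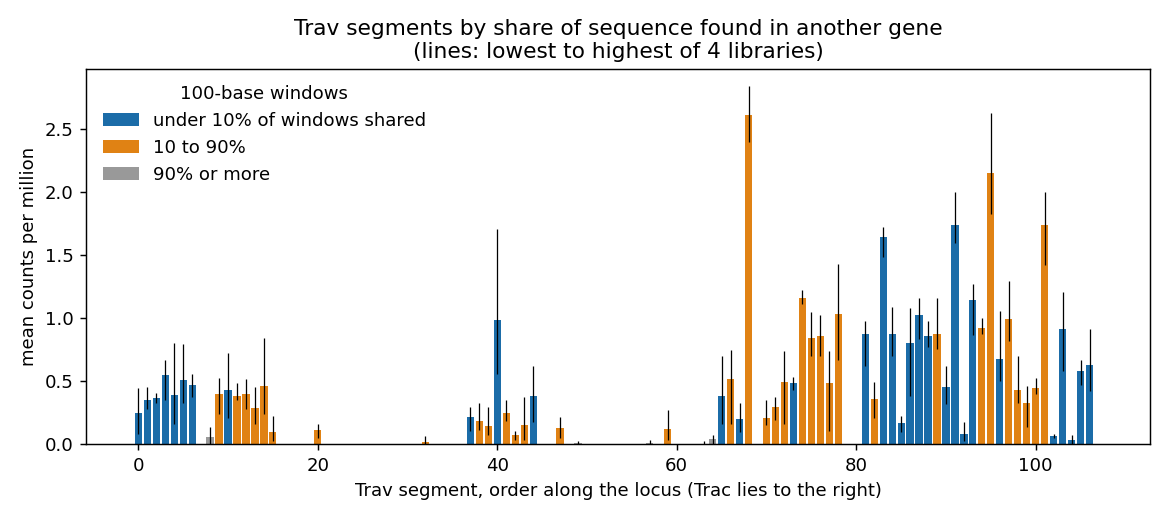
Mean CPM of the 108 Trav genes in order along the locus, coloured by the percent of their 100-base windows that occur in another transcript, with lines from the lowest to the highest library. Segments with 90% or more shared windows lie at or near 0.

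Trav genes nearest to Trac are reached by early rearrangements, and for this reason the 36 nearest genes were compared with the 36 farthest. The nearest 36 (Trav7-3 to Trav23) had 801, 928, 1558 and 1056 counts, and the farthest 36 (Trav1 to Trav6d-7) had 178, 142, 327 and 278. The log2 ratios were 2.17, 2.70, 2.25 and 1.92, a mean of 2.26 ± 0.33. Among segments with under 10% of windows shared, an alternative chosen after seeing the data, the mean ratio was 0.37, with 178, 231, 362 and 203 counts in the 10 nearest and 118, 157, 263 and 223 in the 10 farthest, and replicate 4 had the opposite direction. That reason concerns Trav genes only, and what the order of Traj counts reflects was not tested. Of the 51 Traj genes 48 had a count, none had 10 in every library, and all were low. The 17 nearest to Trac had 49, 44, 83 and 81 counts, the middle 17 had 21, 26, 65 and 40 and the 17 farthest had 6, 11, 16 and 20. The nearest 17 exceeded the farthest 17 by 2.93, 1.95, 2.34 and 1.99 on the log2 scale, a mean of 2.30 ± 0.45, and splitting the cluster at its middle gave 1.11. The 9 Traj pseudogenes had 5, 2, 14 and 6 counts in all. The most counted Traj were Traj2 (5, 11, 17 and 20), Traj6 (6, 5, 14 and 9), Traj39 (7, 3, 10 and 6), Traj4 (5, 0, 8 and 8) and Traj37 (0, 5, 9 and 7).

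Segments of invariant receptors had few counts, which was not particular to them, since all Traj genes were low. NKT cells join Trav11 to Traj18: Traj18 had 4, 1, 1 and 3 counts, while Trav11 and Trav11d had 0, but 99.6% and 100% of their windows are shared, so that 0 cannot be read. Of 5 NKT markers 3 were at 1 TPM or more in every library, where 47.0% of protein-coding genes were: Cxcr6 at 56.2 TPM, Tbx21 at 10.9 and Slamf6 at 1.77. Klrb1c had 0 counts and Zbtb16 had 0, 1, 0 and 2. MAIT cells join Trav1 to Traj33: Trav1 had 6, 3, 26 and 11 counts and Traj33 had 0, 0, 1 and 3.

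Genes that partner with the receptor were detected. Of 9 TCR assembly genes 7 were at 1 TPM or more in every library, where 47.0% of 21764 protein-coding genes were: Cd3d 226 TPM, Cd247 114, Cd3e 107, Cd3g 73.4 and Cd4 346. Trat1 was at 4.55 TPM and Cd8b1 at 10.2, while Cd8a was at 0.0612 TPM and Ptcra, the pre-T alpha chain, at 0.0301. Of 12 recombination genes 10 were at 1 TPM or more, among them the repair proteins Xrcc5 (92.7 TPM) and Xrcc6 (77.6 TPM) and the chromatin protein Hmgb2 (446 TPM). Rag2 had 0 counts, Rag1 had 2, 3, 15 and 2, and Dntt, which adds bases at the joins, was at 1.93 ± 0.36 TPM. Markers of other cells at 1 TPM or more numbered 1 of 5 for CD8 T cells (Cd8b1), 0 of 5 for B cells and 2 of 7 for double-positive thymocytes (Dntt and Cd8b1).

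Spread between libraries was tested on counts for the 73 TR genes that passed edgeR's filter on low counts, 71 of which were among the 73 with 10 or more counts in every library. Trbj1-1 and Trav7d-3 did not pass it and were not tested, while Trav8d-1 and Trav13-2 were. edgeR's negative binomial deviance at trended dispersion, with Benjamini-Hochberg adjustment over all genes, called 0 of 73, where 0.523% of all 12434 genes were called. By the same test 2 of 73 TR genes (Trav14d-3-dv8 and Trav9-2) had an unadjusted p under 0.05. So had 557 of all 12434 genes, which is a larger share. With DESeq2 size factors in place of TMM the number of TR genes called was also 0. The Poisson deviance with a highest to lowest CPM ratio of at least 2 called 6 of 73, where 1.74% of all genes were called. All 6 were Trav genes: Trav14d-3-dv8 (16, 63, 43 and 40 counts), Trav9-2 (11, 40, 57 and 33), Trav7-1 (10, 12, 34 and 34), Trav5-4 (16, 39, 29 and 25), Trav10 (19, 53, 67 and 38) and Trav17 (25, 37, 70 and 25). Trav14d-3-dv8 had the smallest edgeR p, 0.00136, adjusted 0.168. Shares within a locus varied by more than counting alone, where counting alone gives about 1. Chi-square over degrees of freedom was 2.32 for Trbv, 2.19 for Trav, 1.58 for Trbj, 1.71 for Traj and 2.59 for the alpha and beta C genes. It was 5.46 over all genes with a count, which cannot be set beside the TR values. That figure used shares of whole libraries, included Xist and Eif2s3y, and depends on the number of counts per gene. Among genes of a mean log2 CPM from 2 to 4, the median SD of log2 CPM was 0.134 for 10 TR genes and 0.108 for all genes, and under 0 it was 0.263 for 36 TR genes and 0.320 for all genes.

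**Figure D5:**
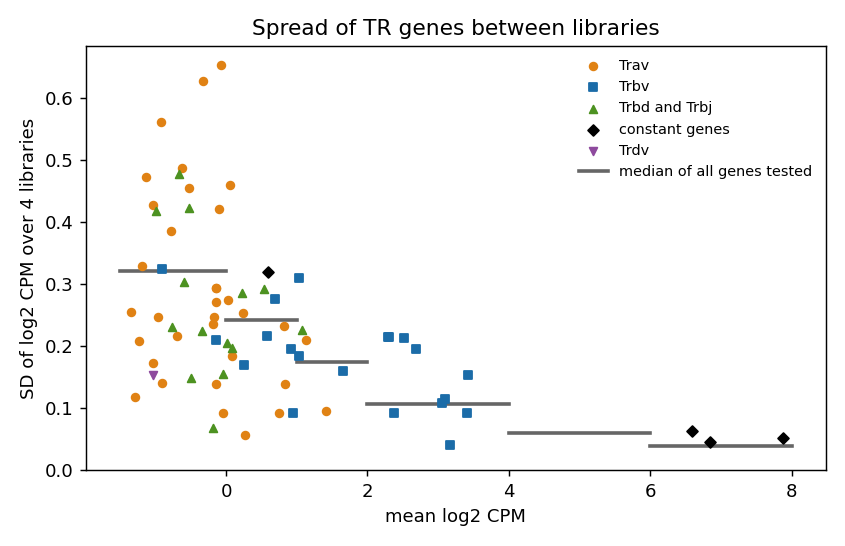
SD of log2 CPM over the 4 libraries against mean log2 CPM for the 73 TR genes tested, with grey lines at the median of all genes tested in the same range of levels. Trav genes of low level scatter most, but under a mean log2 CPM of 0 the median SD is 0.263 for TR genes and 0.320 for all genes. The 3 abundant C genes have a median SD of 0.052, where all genes at that level have 0.040.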

How the data were processed

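The authors deposited raw fragment counts per gene, made per the file headers with featureCounts 1.4.6-p4 on paired reads with both ends mapped and strand option 2 (reverse-stranded), on GENCODE M13 gene models. The build is mm10 per the labels. The options to count multi-mapping fragments, and to count a fragment for each of 2 genes it touched, were absent from that header. No aligner is named in the headers or labels beyond the names of the alignments. Names, types and sequences came from GENCODE M21. Members and lists were chosen with earlier results of these data known.

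TPM and CPM were computed from the counts with Python 3.11.15. Pairs were compared within libraries with pseudocounts of 0.1 TPM or 0.5 counts and an exact two-sided sign-flip test, and 100-base windows were searched on both strands of all M21 transcripts. Spread was tested with edgeR 4.0.16 in R 4.3.3 (TMM, default filter, trended dispersion, Benjamini-Hochberg over all genes) and with DESeq2 1.42.0 size factors as an alternative. The test was also run on simulated data, where genes drawn from all genes tested were changed in replicate 3, the deepest library. There 40 of 50 genes changed 2-fold and 50 of 50 changed 8-fold were called, and 0 of 12311 in a simulation with no change. Of the 73 TR genes tested 36 had a mean log2 CPM under 0, as had 1258 of all 12434 genes. The shares called in simulation therefore do not give the power for TR genes, which were not simulated apart. Named genes were all C and D genes, all Trbj, the 10 Trbv and 10 Trav with the highest mean share, the 5 most counted Traj, the highest Trd and Trg segments, the invariant segments and any called gene. Each replicate was left out in turn.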

Additional observations from a re-analysis of the deposited data

Results flagged for a closer look

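Of 62 values per library, 5 had 1 library apart from the other 3, and chance alone flags about 1 in 20 groups of 4. Trbc2 was 573 TPM in replicate 4 and 542 to 543 in the others. Trbj1-2 was 0.892 CPM in replicate 2 and 0.805 to 0.816 in the others. Trbj2-7 was 1.91 CPM in replicate 4 and 1.22 to 1.33 in the others. Trav5-4 was 1.05 CPM in replicate 2 and 0.499 to 0.583 in the others. The log2 ratio of Trbv genes to Trbv pseudogenes was 8.97 in replicate 4 and 7.48 to 7.65 in the others, where the pseudogenes had 3 counts in replicate 4.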

How the results depend on the processing

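Of 71 alternatives over 11 results, 66 kept the direction and the side of the threshold or stayed within the spread. Per exon length, Trac lay below the beta constant genes, and raw counts turned this to 0.16. The effective number of Trbv segments moved to 13.6 with counts per kilobase and 12.2 with segments under 10% shared windows, and that of Trav to 20.1 with such segments, an alternative chosen after seeing the data because only transcripts were searched. The Poisson deviance called 6 TR genes in place of 0. Among the 66, the nearest over the farthest Trav genes fell from 2.26 to 0.37 on the log2 scale with segments under 10% shared windows, with replicate 4 in the opposite direction, Traj fell from 2.30 to 1.11 when split at the middle, and Trbj2 over Trbj1 from 0.37 to 0.12 in raw counts. Leaving out each replicate gave 0 calls each time, 13.01 to 13.12 for Trbv, 35.7 to 36.9 for Trav and 0.34 to 0.39 for Trbc2 over Trbc1. No alternative by number of Traj segments could be computed, since none had 10 counts in every library. No paired analysis was possible because the libraries form a single group. Low counts limit Traj and Trd, and shared sequence limits Trav.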

Other observations

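The 10 Trav genes whose name also carries a delta name, of which 8 had a count, held 184, 239, 276 and 209 counts, or 15.8%, 17.4%, 12.2% and 12.9% of Trav counts in replicates 1 to 4. Both values of replicates 1 and 2, the libraries with high Xist, were above those of replicates 3 and 4. So were those of Trav21-dv12 (2.24%, 1.96%, 1.20% and 1.11%), while Trav6d-4 (0.517%, 0.582%, 1.51% and 1.92%) and Trav7-1 (0.861%, 0.873%, 1.51% and 2.10%) had the opposite order. These genes were named after their values were seen. In CPM, 10 of the 73 TR genes tested were higher in both of replicates 1 and 2 than in replicates 3 and 4, where 20.0% of all 12434 genes were, and 14 were lower in both, where 16.8% were. Rank order was most alike between libraries for Trbv (Spearman rho 0.961 to 0.987 across 22 genes) and least for Traj (0.210 to 0.478 across 48 genes), as a description, since the genes share their libraries.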
